A study of Homo sapiens with 16 samples.

Results

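The 33 genes described here encode enzymes that build, salvage or remove nucleotides, with the enzymes of folate-bound one-carbon units that feed them. They were chosen by symbol, all 33 were found among the 12676 genes of the deposited count table, and all 33 passed the filter on low counts. By role they comprised 9 deoxynucleotide, 4 pyrimidine, 13 purine, 2 PRPP synthesis and 5 one-carbon genes. RNA-seq was made from the human lung carcinoma line H1299 (non-small cell), in which YEATS2, a histone acetylation reader of the ATAC acetyltransferase complex, had been depleted. The shYEATS2 cells (2 libraries) carried a lentiviral pLKO short hairpin against YEATS2, and the shCtrl cells (2 libraries) carried a non-targeting pLKO hairpin (shNT). Both were infected for 48 hours with 8 µg/ml polybrene and then selected with 2 µg/ml puromycin for 4 to 7 days. The labels do not name the hairpin, and the study describes its duplicate RNA-seq as made with a single hairpin, shY2-1. In these libraries an effect of the hairpin itself therefore cannot be told apart from loss of YEATS2. Elsewhere the study reports RNA-seq with another, weaker hairpin. It also reports rescue of growth and of ribosomal protein genes by hairpin-resistant YEATS2. The comparison asks what YEATS2 depletion did to these genes, and whether deoxynucleotide genes moved as far as purine and pyrimidine genes.

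Cells make purine and pyrimidine nucleotides from small precursors on the activated ribose PRPP, or recover bases and nucleosides by salvage. Ribonucleotide reductase turns ribonucleotides into deoxyribonucleotides, and thymidylate synthase adds the methyl group of thymidylate using a one-carbon unit carried by folate. Many of the deoxynucleotide enzymes are made mainly in S phase, when DNA is copied, whereas purines and uridine nucleotides are also needed for RNA in cells that do not divide.

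The sequences upstream of 4 genes are printed because the values of these genes stood out. RRM2 and TYMS fell furthest of the 33 genes, and PRPS1 and PRPS2 encode the same activity but only PRPS2 passed the test. A further stretch lies between the starts of PPAT and PAICS, a divergent purine gene pair of which only PAICS passed. Each is shown 5′ to 3′ from RefSeq (GRCh38.p14), with the 250 bases before the start for the single genes. Capitals mark words searched on both strands: the E2F words TTTCCCGC, TTTGGCGC and TTTCGCGC, the NF-Y word CCAAT, the E-box CACGTG and the cell cycle word TTTGAA. The genomic positions are chr18:657403-657652 (+) for TYMS, chr2:10122489-10122738 (+) for RRM2, chrX:107628260-107628509 (+) for PRPS1, chrX:12791162-12791411 (+) for PRPS2 and chr4:56435616-56435751 (+) for the stretch of 136 bases between PPAT and PAICS.
TYMS: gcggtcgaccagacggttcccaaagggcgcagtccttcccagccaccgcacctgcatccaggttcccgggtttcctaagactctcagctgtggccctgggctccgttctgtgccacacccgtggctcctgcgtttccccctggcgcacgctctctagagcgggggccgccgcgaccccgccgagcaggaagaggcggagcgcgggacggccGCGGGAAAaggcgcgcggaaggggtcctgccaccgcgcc
RRM2: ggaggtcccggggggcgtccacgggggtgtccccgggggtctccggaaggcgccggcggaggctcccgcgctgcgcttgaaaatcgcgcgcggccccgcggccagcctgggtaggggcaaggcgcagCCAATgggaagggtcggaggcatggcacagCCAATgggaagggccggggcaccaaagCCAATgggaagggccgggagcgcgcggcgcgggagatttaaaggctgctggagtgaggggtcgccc
PRPS1: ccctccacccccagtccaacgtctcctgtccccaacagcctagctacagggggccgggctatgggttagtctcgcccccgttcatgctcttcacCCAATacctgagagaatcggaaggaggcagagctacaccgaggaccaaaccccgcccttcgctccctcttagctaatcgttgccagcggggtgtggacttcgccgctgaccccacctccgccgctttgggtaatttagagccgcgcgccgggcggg
PRPS2: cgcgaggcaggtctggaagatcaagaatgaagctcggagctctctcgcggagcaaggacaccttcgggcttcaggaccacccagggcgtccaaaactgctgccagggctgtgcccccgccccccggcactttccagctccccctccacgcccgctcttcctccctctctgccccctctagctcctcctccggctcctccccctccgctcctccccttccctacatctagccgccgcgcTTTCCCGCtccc
PPAT and PAICS: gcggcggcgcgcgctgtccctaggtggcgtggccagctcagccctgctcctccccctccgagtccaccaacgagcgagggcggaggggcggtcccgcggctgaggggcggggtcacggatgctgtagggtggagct

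An E2F word began 39 bases before the TYMS start and 12 bases before the PRPS2 start. RRM2 had no E2F word in this window and instead held 3 CCAAT words, at 123, 93 and 66 bases before its start. PRPS1 held a CCAAT word at 156 bases, and the stretch between PPAT and PAICS held 0 of the words. Outside this stretch, the PPAT window held an E-box 182 bases before its start, and a PAICS window also held an E-box. Windows from 250 bases before to 50 bases after the start were matched for 30 of the 33 genes. Windows of ADSL, IMPDH2 and SHMT2 were not used here. An E2F word was found in 5 of the 30 (TYMS, DUT, DCK, GART and PRPS2), against 5.76% of 9029 genes of the count table with a window. CCAAT was found in 13 of the 30, against 43.8% of those genes. The E-box was found in 7 of the 30 and TTTGAA in 5 of the 30, against 12.9% and 13.4% of those genes. No searched word overlapped a word of another kind. These matches describe letters in these windows and were not tested for binding.

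The 4 libraries held 34718921 to 39417787 counted reads, and the table keeps a gene only where a library reached 101 reads or more. YEATS2 itself, given as reads scaled to the mean TMM-adjusted library size (scaled reads), stood at 4482 and 4104 in the shCtrl libraries and 665 and 673 in the shYEATS2 libraries. This was a log2 fold change of -2.68 ± 0.10 (SE, n = 2 per group, FDR = 0.000583 in the quasi-likelihood test of edgeR, adjusted by Benjamini-Hochberg over all genes), so the labels hold. The same test and an FDR under 0.01 are used throughout, and every ± after a log2 fold change is an SE with n = 2 per group. The study describes the duplicates as independent biological replicates, the labels do not say how they were separated, and p-values measure the spread between these libraries. Of the line's expected genes, VIM, KRT8 and KRT18 were present, and 10 of 10 markers of blood, endothelium, lung epithelium, liver and glia were not listed. Markers of H1299 beyond these were not examined.

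After YEATS2 depletion many nucleotide enzyme genes fell, and the deoxynucleotide genes had the lowest median of the 5 groups. Of the 33 genes, 16 fell and 1 rose, with 16 not passing the test, against 12.5% of all genes tested that were lower (1581) and 12.9% that were higher (1630). Scaling by total counts gave 1166 lower (9.2%) and 2363 higher (18.6%) genes over the table, shifted the median of the fold changes (log2) from -0.0019 to 0.12, and left 14 of the 33 lower. At an unadjusted p under 0.05, 21 were lower and 3 higher, against 27.8% and 28.7% of all genes. The 33 genes had a median log2 fold change of -0.56, against -0.0019 for the whole table. Both shYEATS2 libraries lay below both shCtrl libraries for 26 of the 33 genes and above them for 6, against 39.8% and 39.7% of all genes. In bulk RNA, fewer cells expressing a gene and less RNA per cell cannot be told apart. Among deoxynucleotide genes 6 of 9 fell (median log2 fold change -0.97), and among purine and pyrimidine genes together 7 of 17 fell (median -0.42). The difference between these groups is a description by counts and medians with no test. The lower purine and pyrimidine calls were the less stable, with 3 of 17 left without either shCtrl library and 4 without shYEATS2 replicate 2, while the deoxynucleotide calls numbered 6 to 7 of 9 in the same fits, in which the lone library of a group is assumed to vary like those of the other.

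The excess of lower members over the background was seen with other tests and with fewer libraries. DESeq2 called 19 members lower against 17.3% of all genes, exactTest with TMM 19 against 19.7%, and exactTest on total counts 17 against 14%. An FDR under 0.05 gave 21 lower members against 23.8% of all genes and 2 higher members against 24.4%. Without shCtrl replicate 1 or 2, 12 members were lower, against 6.71% and 7.25% of all genes, and 0 were higher, against 6.11% and 6.96%. Without shYEATS2 replicate 1, 20 were lower against 16% and 1 (GUK1) was higher against 15.6%. Without shYEATS2 replicate 2, 13 were lower against 8.36% and 0 were higher against 7.83%.

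**Figure D1:**
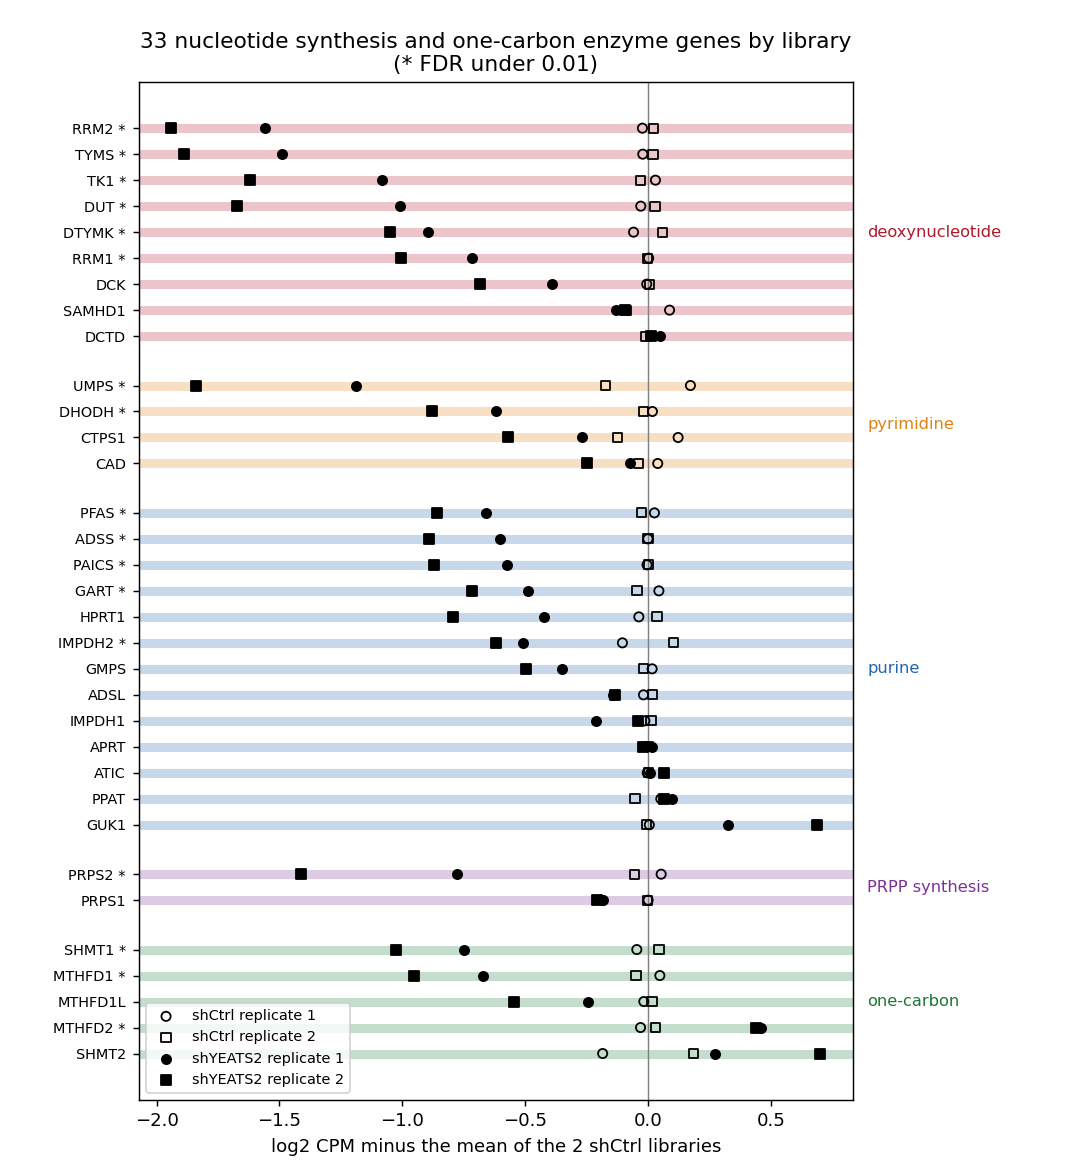
Each point is 1 library's log2 CPM (reads relative to the TMM-scaled library size) minus the mean of the 2 shCtrl libraries, for the 33 genes ordered by fold change within their groups, with open symbols for shCtrl, filled symbols for shYEATS2, and circles and squares for replicates 1 and 2. RRM2, TYMS and UMPS lie furthest to the left, MTHFD2, SHMT2 and GUK1 lie to the right, and for 27 of the 33 genes shYEATS2 replicate 2 lies left of replicate 1.

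Ribonucleotide reductase fell in both subunits, and its regulated small subunit fell further. RRM2, the small subunit that peaks in S phase (GRCh37 chr2:10260825-10351851), stood at 17692 and 18249 scaled reads in shCtrl and 6099 and 4679 in shYEATS2. Its log2 fold change was -1.74 ± 0.14 (FDR = 0.000881), which left 30.0% of the control level. The shYEATS2 libraries were both far below the controls and differed more from each other than the controls did. RRM1, the large catalytic subunit, stood at 6084 and 6060 in shCtrl and 3698 and 3024 in shYEATS2, a log2 fold change of -0.85 ± 0.12 (FDR = 0.00244). RRM2B, the alternative small subunit, which is used outside S phase, stood at 2677 and 2715 in shCtrl and 2063 and 2136 in shYEATS2, and its log2 fold change of -0.36 ± 0.09 did not pass (FDR = 0.0171).

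The thymidylate genes fell together. TYMS, thymidylate synthase (GRCh37 chr18:657653-673578), had 9704 and 9991 scaled reads in shCtrl and 3509 and 2662 in shYEATS2. This was a log2 fold change of -1.67 ± 0.14 (FDR = 0.000920), and the groups were widely separated. TYMS lies opposite ENOSF1 and the antisense TYMSOS, and the library kit does not mark strand. ENOSF1 did not pass, with a log2 fold change of 0.03 ± 0.12 (FDR = 0.852, and -0.11 to 0.15 without 1 library). Whether antisense reads entered the TYMS count was not tested. TK1, the cytosolic thymidine kinase of salvage, had 5379 and 5155 in shCtrl and 2485 and 1714 in shYEATS2, a log2 fold change of -1.33 ± 0.17 (FDR = 0.00200). DTYMK, which phosphorylates thymidylate from either route, had 3551 and 3851 in shCtrl and 1987 and 1783 in shYEATS2, a log2 fold change of -0.97 ± 0.11 (FDR = 0.00130). DUT, the dUTPase that keeps uracil out of DNA and supplies dUMP to TYMS, had 4863 and 5064 in shCtrl and 2467 and 1555 in shYEATS2, a log2 fold change of -1.30 ± 0.20 (FDR = 0.00347). In each of these genes shYEATS2 replicate 2 was the lowest library and neither knockdown library reached the controls. DUT has 8 annotated pseudogenes and an antisense transcript, so some of its reads may be shared or lost.

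The remaining deoxynucleotide genes did not pass the test. DCK, the kinase that salvages deoxycytidine and purine deoxynucleosides, had 1478 and 1488 scaled reads in shCtrl and 1130 and 924 in shYEATS2, and its log2 fold change of -0.53 ± 0.12 missed the threshold (FDR = 0.0133). SAMHD1, which breaks down dNTPs, had a log2 fold change of -0.11 ± 0.10 (FDR = 0.385), a value that becomes 0.0068 under total-count scaling. DCTD, the dCMP deaminase that makes dUMP, had 3462 and 3413 in shCtrl and 3561 and 3468 in shYEATS2, a log2 fold change of 0.03 ± 0.09 (FDR = 0.787). The 9 genes summed to 55155 and 55875 scaled reads in the shCtrl libraries and 27464 and 22406 in the shYEATS2 libraries, without overlap between the groups.

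Of the pyrimidine genes, UMPS and DHODH fell and CAD and CTPS1 did not pass the test. UMPS, which completes UMP, had 3030 and 2383 scaled reads in shCtrl and 1179 and 749 in shYEATS2, a log2 fold change of -1.49 ± 0.22 (FDR = 0.00295). Its SE was the largest among the 33 genes, but the groups stayed apart. DHODH, the mitochondrial dehydrogenase of the preceding step, had 1077 and 1050 in shCtrl and 692 and 578 in shYEATS2, a log2 fold change of -0.74 ± 0.13 (FDR = 0.00438). Its call was lost without shCtrl replicate 1 (FDR = 0.0172), without shCtrl replicate 2 (FDR = 0.0130) and, barely, without shYEATS2 replicate 2 (FDR = 0.0102), with log2 fold changes of -0.73, -0.76 and -0.62. CAD, the multifunctional enzyme that opens the pathway, had 10418 and 9858 in shCtrl and 9640 and 8538 in shYEATS2, a log2 fold change of -0.16 ± 0.10 (FDR = 0.238). CTPS1, which converts UTP to CTP, had a log2 fold change of -0.42 ± 0.14 (FDR = 0.0433).

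Of the 13 purine genes 5 fell, each by less than the leading deoxynucleotide genes. PFAS, an amidotransferase of the middle of the pathway, had 5662 and 5458 scaled reads in shCtrl and 3523 and 3062 in shYEATS2, a log2 fold change of -0.76 ± 0.11 (FDR = 0.00244). GART, the multifunctional enzyme acting on either side of PFAS, had 11904 and 11191 in shCtrl and 8224 and 7028 in shYEATS2, a log2 fold change of -0.60 ± 0.11 (FDR = 0.00593). PAICS, which follows them, had 14131 and 14201 in shCtrl and 9507 and 7752 in shYEATS2, a log2 fold change of -0.72 ± 0.12 (FDR = 0.00428). In all 3 the groups were apart and shYEATS2 replicate 2 was the lowest library. The calls of GART and PAICS were lost without shCtrl replicate 1 (FDR = 0.0314 and 0.0130, log2 fold changes -0.56 and -0.72) and without shCtrl replicate 2 (FDR = 0.0167 and 0.0129, log2 fold changes -0.64 and -0.71). That of GART was also lost without shYEATS2 replicate 2 (FDR = 0.0136, log2 fold change -0.49) and under total-count scaling (FDR = 0.0107).

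PPAT, the committed step of the pathway, had 2656 and 2469 scaled reads in shCtrl and 2741 and 2679 in shYEATS2, a log2 fold change of 0.08 ± 0.09 (FDR = 0.502). PPAT and PAICS are read in opposite directions from the stretch of 136 bases printed above, so the shared stretch went with a fall in PAICS and no detected fall in PPAT. Reads of PAICS per read of PPAT in the same library were 5.32 and 5.75 in shCtrl and 3.47 and 2.89 in shYEATS2, a ratio that does not depend on scaling. PPAT overlaps unnamed noncoding genes on the other strand, and PAICS has 7 annotated pseudogenes.

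At the branch from IMP, both arms held a gene that fell. ADSS, which commits IMP to AMP, had 3096 scaled reads in each shCtrl library and 2038 and 1669 in shYEATS2, a log2 fold change of -0.74 ± 0.12 (FDR = 0.00380). IMPDH2, the isoform of the GMP arm that proliferating cells use, had 11593 and 13387 in shCtrl and 8767 and 8124 in shYEATS2, a log2 fold change of -0.56 ± 0.11 (FDR = 0.00695). ADSS fell from closely matched controls, whereas the IMPDH2 controls themselves lay further apart. The IMPDH2 call was lost without shCtrl replicate 1 (FDR = 0.0121, log2 fold change -0.67), without shCtrl replicate 2 (FDR = 0.0523, -0.46), without shYEATS2 replicate 2 (FDR = 0.0200, -0.51) and under total-count scaling (FDR = 0.0158). IMPDH1, the isoform expressed in most tissues, had a log2 fold change of -0.12 ± 0.10 (FDR = 0.341), and GMPS, which makes GMP, had -0.42 ± 0.10 (FDR = 0.0127).

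The other purine genes did not pass. ADSL, used both in the pathway and in the AMP arm, had a log2 fold change of -0.14 ± 0.09 (FDR = 0.233), and ATIC, which completes IMP, had 0.04 ± 0.09 (FDR = 0.751). HPRT1, the salvage enzyme for hypoxanthine and guanine, had -0.60 ± 0.14 (FDR = 0.0120), as large a change as that of GART with a wider error. APRT, the salvage enzyme for adenine, had 6422 and 6440 scaled reads in shCtrl and 6497 and 6344 in shYEATS2, a log2 fold change of -0.0024 ± 0.09 (FDR = 0.984) that is 0.12 under total-count scaling. Its libraries overlapped, the 1 gene of the 33 for which the knockdown libraries were neither both below nor both above the controls. GUK1, the guanylate kinase, had 1906 and 1891 in shCtrl and 2383 and 3056 in shYEATS2, a log2 fold change of 0.52 ± 0.13 (FDR = 0.0182). GUK1 passed without shYEATS2 replicate 1 (FDR = 0.00216, log2 fold change 0.69).

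The PRPP synthetases, which supply the activated ribose to both pathways, came apart. PRPS2 (GRCh37 chrX:12809474-12842341) had 3789 and 3516 scaled reads in shCtrl and 2126 and 1370 in shYEATS2, a log2 fold change of -1.06 ± 0.20 (FDR = 0.00594). PRPS1 (GRCh37 chrX:106871658-106895223) had 4177 and 4172 in shCtrl and 3675 and 3620 in shYEATS2, a log2 fold change of -0.19 ± 0.09 (FDR = 0.109). The PRPS1 libraries were tight within each group and the PRPS2 knockdown libraries were not. The ratio of PRPS2 to PRPS1 reads went from 0.907 and 0.843 in shCtrl to 0.579 and 0.379 in shYEATS2.

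The cytosolic one-carbon genes fell, and the mitochondrial ones did not move together. SHMT1, the cytosolic serine hydroxymethyltransferase, had 2374 and 2528 scaled reads in shCtrl and 1458 and 1202 in shYEATS2, a log2 fold change of -0.88 ± 0.12 (FDR = 0.00231). MTHFD1, the cytosolic multifunctional folate enzyme (GRCh37 chr14:64854749-64930175), had 11850 and 11079 in shCtrl and 7186 and 5924 in shYEATS2, a log2 fold change of -0.81 ± 0.12 (FDR = 0.00294). Both cytosolic genes were therefore below their controls in both libraries, although MTHFD1 overlaps ZBTB25 on the other strand. MTHFD2, the mitochondrial dehydrogenase and cyclohydrolase (GRCh37 chr2:74413299-74444692), had 8775 and 9148 in shCtrl and 12338 and 12143 in shYEATS2, a log2 fold change of 0.45 ± 0.09 (FDR = 0.00779). MTHFD2 overlaps SLC4A5 and an unnamed protein-coding gene on the other strand, and has 7 annotated pseudogenes. It was the 1 member that rose, and its call did not hold in any of the 4 fits without a library (FDR = 0.0103 to 0.0792, log2 fold change 0.42 to 0.48). SHMT2, the mitochondrial serine hydroxymethyltransferase, had 6285 and 8114 in shCtrl and 8635 and 11616 in shYEATS2, a log2 fold change of 0.49 ± 0.18 (FDR = 0.0564). MTHFD1L, the mitochondrial synthetase that releases formate, went the other way, with 6510 and 6663 in shCtrl, 5568 and 4514 in shYEATS2 and a log2 fold change of -0.39 ± 0.12 (FDR = 0.0359). The 5 genes summed to 35792 and 37533 scaled reads in shCtrl and 35185 and 35397 in shYEATS2, so the group's total was nearly level while its members moved in opposite directions.

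**Figure D2:**
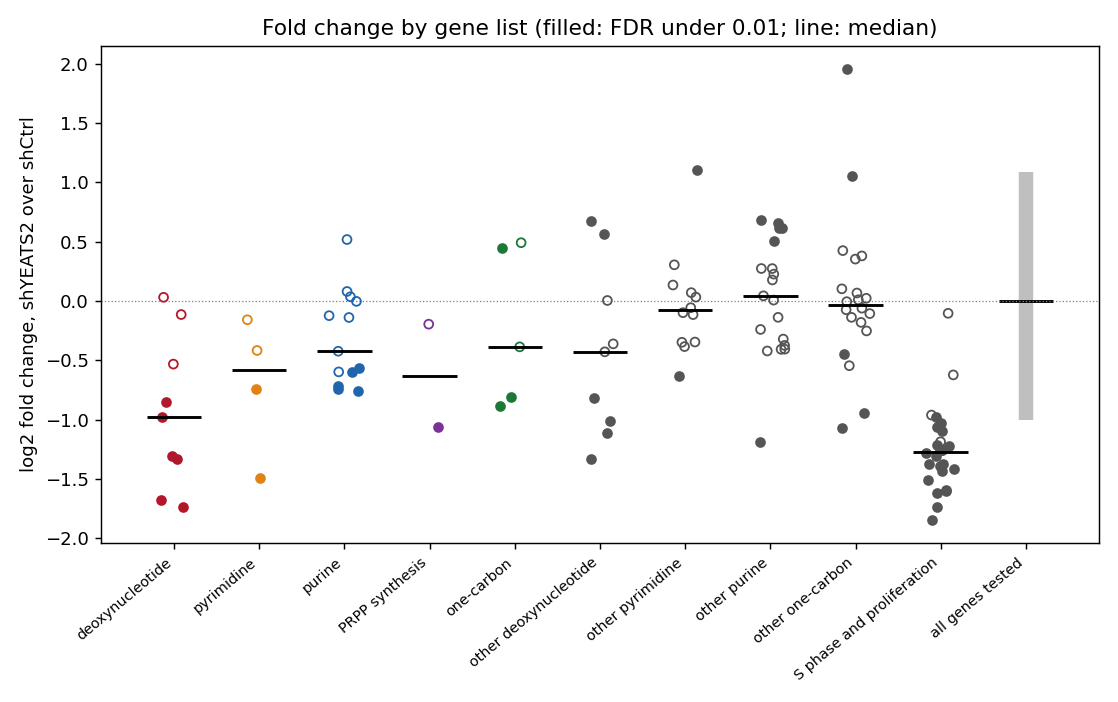
Each point is 1 gene's log2 fold change (shYEATS2 over shCtrl), filled where the FDR is under 0.01, with the list median as a line. Other genes of each pathway and S phase genes stand beside the members, and the grey bar spans the 5th to 95th percentile of all genes (-1.004 to 1.089). The deoxynucleotide median (-0.97) is the lowest of the 5 member groups, the purine median is -0.42, and the S phase median is -1.27.

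Ratios of enzymes that share a reaction, or follow each other, were taken within each library because they do not depend on scaling. In each pair the first gene is the one that fell further, so the direction follows from that choice, and the pairs of MTHFD1 with MTHFD2 and of PAICS with PPAT were chosen after their values were seen. Reads of TK1 per read of TK2, the mitochondrial thymidine kinase, were 10.4 and 8.92 in shCtrl and 3.07 and 1.83 in shYEATS2, a 4.06-fold fall in the ratio. TK2 rose, from 516 and 578 scaled reads to 811 and 935, with a log2 fold change of 0.67 ± 0.13 (FDR = 0.00676). Reads of RRM2 per read of RRM2B were 6.61 and 6.72 in shCtrl and 2.96 and 2.19 in shYEATS2. DCK per DGUOK, the mitochondrial deoxyguanosine kinase, was 0.811 and 0.768 in shCtrl and 0.444 and 0.306 in shYEATS2. DGUOK rose, with a log2 fold change of 0.56 ± 0.11 (FDR = 0.00806). Both mitochondrial deoxynucleoside kinases thus rose in the fit of all libraries, while TK1 fell and DCK did not pass. Their calls were lost without shCtrl replicate 1 (FDR = 0.0449 for TK2 and 0.0463 for DGUOK, log2 fold changes 0.59 and 0.52), without shCtrl replicate 2 (0.0162 and 0.0239, log2 fold changes 0.76 and 0.61) and without shYEATS2 replicate 2 (0.0209 and 0.0205, log2 fold changes 0.57 and 0.44).

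For the one-carbon genes, SHMT1 per SHMT2 was 0.378 and 0.311 in shCtrl and 0.169 and 0.103 in shYEATS2. MTHFD1 per MTHFD2 went from 1.35 and 1.21 to 0.582 and 0.488, and per transcript length MTHFD1 went from 99.8 to 57.1 RPKM (reads relative to transcript length and library size) and MTHFD2 from 55.9 to 76.3, so their order turned. ADSS per ADSSL1, the muscle isoform, went from 3.70 and 3.46 to 1.49 and 1.30, where ADSSL1 rose by 0.61 ± 0.11 on the log2 scale (FDR = 0.00462). The ADSSL1 call was lost without shCtrl replicate 1 (FDR = 0.0361, log2 fold change 0.56) or 2 (FDR = 0.0178, 0.66). Smaller falls were seen for IMPDH2 per IMPDH1 (1.35-fold) and for CTPS1 per CTPS2 (1.29-fold), the latter with a CTPS2 log2 fold change of -0.06 ± 0.14 (FDR = 0.760). In none of the 10 pairs did the groups overlap, but the share of other gene pairs without overlap was not counted. Among single genes, both shYEATS2 libraries lay below both controls for 39.8% and above them for 39.7%, so separation alone is common. The exact permutation test of 2 against 2 libraries (two-sided) cannot go below p = 0.333.

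**Figure D3:**
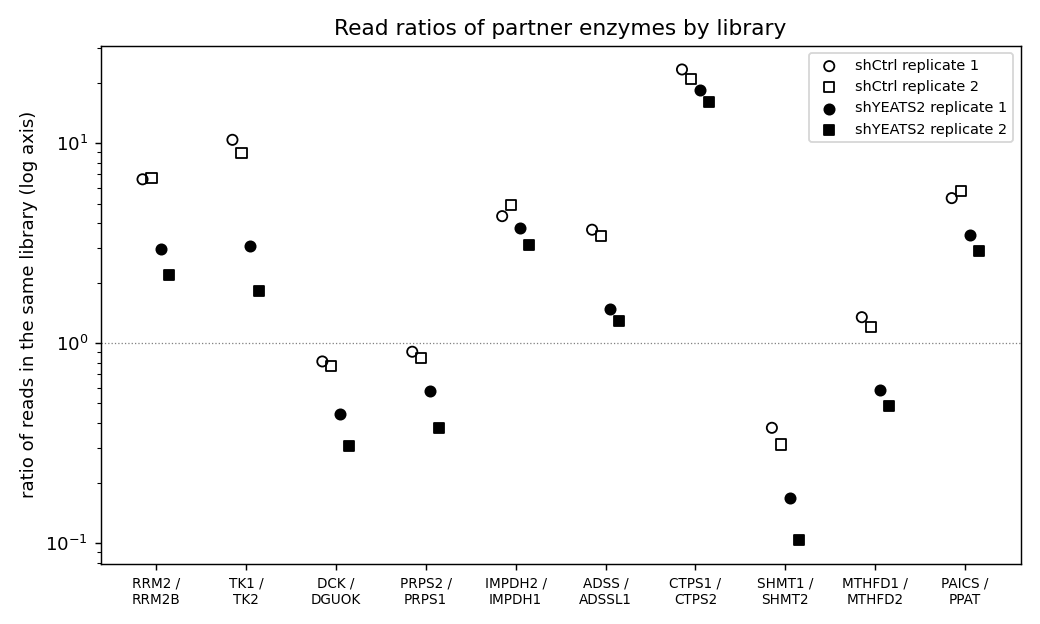
Reads of the first gene divided by reads of the second in the same library (log axis) for 10 pairs, with open symbols for the 2 shCtrl and filled symbols for the 2 shYEATS2 libraries. The TK1 to TK2 ratio falls furthest, from 10.4 and 8.92 to 3.07 and 1.83, and the MTHFD1 to MTHFD2 ratio crosses 1.

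Beyond these members, 73 other genes of nucleotide and folate metabolism were listed and 60 were in the table, of which 9 fell, 10 rose and 41 did not pass (median log2 fold change -0.06). These shares are close to the 12.5% and 12.9% of all genes. At an unadjusted p under 0.05, 19 were lower and 13 higher, against 27.8% and 28.7% of all genes. Fewer of these genes passed in either direction without shCtrl replicate 1 or without shCtrl replicate 2, as fewer did over all genes. The other deoxynucleotide genes had 4 of 9 lower and 2 higher, the other pyrimidine genes 1 of 12 lower and 1 higher, the other purine genes 1 of 19 lower and 5 higher, and the other one-carbon genes 3 of 20 lower and 2 higher. Falls of at least 1 on the log2 scale past the threshold (FDR = 0.00116 to 0.00485) included those of NUDT1, which clears oxidised purine nucleotides (-1.33 ± 0.19), the adenylate kinase AK5 (-1.19 ± 0.15), the mitochondrial nucleotidase NT5M (-1.12 ± 0.19) and the glycine cleavage enzyme GLDC (-1.07 ± 0.11). The NT5M call was lost without shCtrl replicate 1 (FDR = 0.0157, log2 fold change -1.18) or 2 (FDR = 0.0247, -1.05).

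Rises of that size included a folate gene and a uridine gene. ALDH1L2, a mitochondrial enzyme that oxidises formyl-folate, had 407 and 520 scaled reads in shCtrl and 1730 and 1874 in shYEATS2, a log2 fold change of 1.96 ± 0.14 (FDR = 0.000793). UPP1, uridine phosphorylase, had 977 and 992 in shCtrl and 1676 and 2567 in shYEATS2, a log2 fold change of 1.11 ± 0.19 (FDR = 0.00495). In each of them both knockdown libraries stood clear of both controls.

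Genes of S phase and proliferation moved with the deoxynucleotide genes. Of 26 such genes 22 fell and 0 rose, with a median log2 fold change of -1.27 and a range from -1.85 (GINS4, a replication helicase subunit) to -0.10 (CCNE1). PCNA, the replication clamp, had a log2 fold change of -1.59 ± 0.19 (FDR = 0.00158), and MKI67, the proliferation marker, had -1.51 ± 0.15 (FDR = 0.00114). The mean log2 CPM of this list was 7.19 and 7.12 in shCtrl and 6.16 and 5.55 in shYEATS2, beside 7.05, 7.06, 6.25 and 5.95 for the deoxynucleotide genes. In both lists shYEATS2 replicate 2 was the lower knockdown library, with medians of -0.98 and -1.70 (replicates 1 and 2, log2 CPM minus the control mean) for the S phase list and -0.90 and -1.05 for the deoxynucleotide genes. Replicate 2 was below replicate 1 for 27 of the 33 members (81.8%), against 50.6% of all genes. By flow cytometry, the study reports a G1 arrest after YEATS2 knockdown. The part of S phase content in the members' falls was not tested.

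Levels can be compared between genes only per length, and reads were therefore divided by the annotated canonical transcript length (RPKM), which long 3′ ends of genes such as GMPS, UMPS and PAICS lower. In shCtrl the order ran from IMPDH2 (208 ± 21.1 RPKM, SD, n = 2) and APRT (190 ± 0.355) through TYMS (168 ± 3.45), RRM2 (151 ± 3.31) and TK1 (101 ± 3.03) down to UMPS (11.2 ± 1.89) and DHODH (6.25 ± 0.112). The first 2 do not differ beyond their spread. In shYEATS2 the top of the order was APRT (189 ± 3.20), IMPDH2 (140 ± 7.55) and SHMT2 (129 ± 26.8), of which the last 2 do not differ beyond their spread. TYMS went from rank 3 to rank 10 (52.5 ± 10.2 RPKM), RRM2 from 4 to 15 (45.4 ± 8.46) and TK1 from 5 to 16 (40.3 ± 10.5), while UMPS and DHODH kept the lowest 2 ranks.

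**Figure D4:**
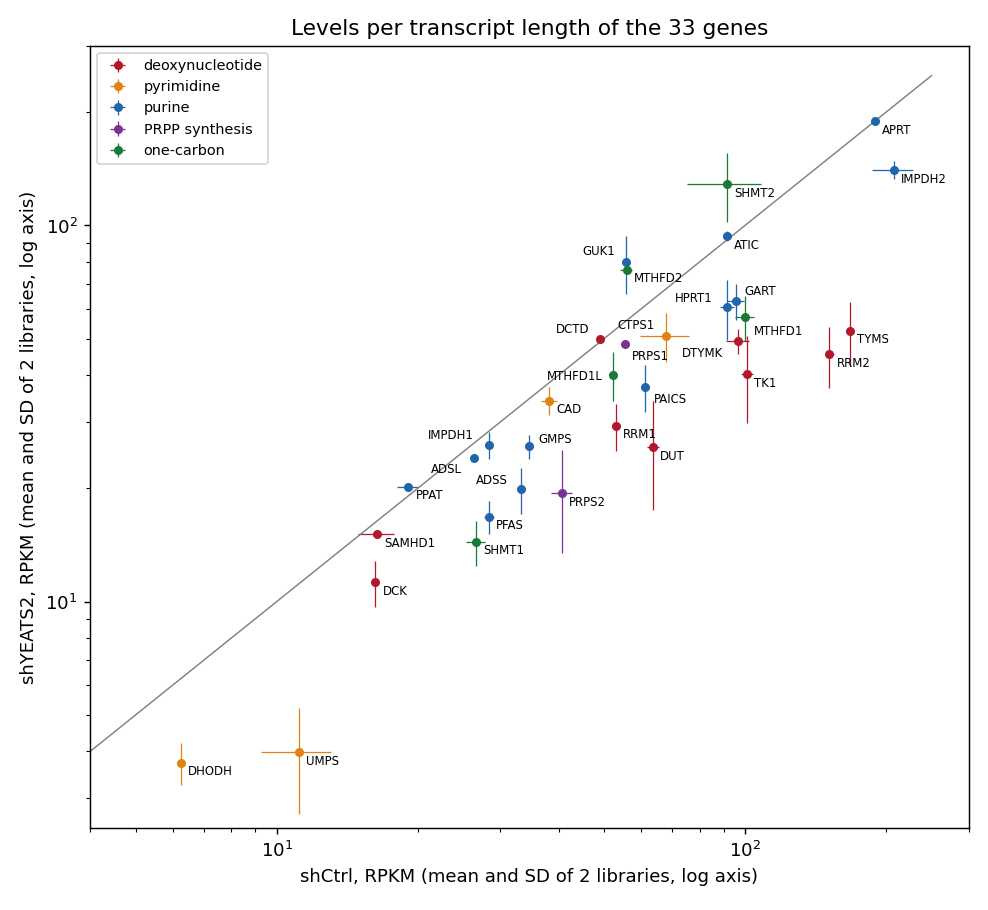
Mean RPKM of the 2 shYEATS2 libraries against that of the 2 shCtrl libraries (log axes, bars are SD) for the 33 genes, coloured by group, with the line of equal level. TYMS, RRM2 and TK1, at 101 to 168 RPKM in shCtrl, lie far below the line, and SHMT2, GUK1 and MTHFD2 lie above it.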

How the data were processed

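RNA-seq of 2 shCtrl and 2 shYEATS2 libraries of H1299 cells was used. The 12 ChIP-seq samples of the series were not analysed here. Per the methods, reads were aligned to hg19 by the RNA-Seq unified mapper, and the authors deposited raw HTSeq counts per gene. The submitters' processing notes list HTSeq 0.6.1p1 and TopHat2 2.0.10 with no role. The gene annotation is not given in the sources used here. The table's own fold change, p-value and FDR columns were not used. No per-sample column was left unassigned.

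A gene was tested if 2 or more libraries had 10 or more of its reads (all 12676 genes), with edgeR 4.0.16 (R 4.3.3), with TMM scaling, the quasi-likelihood test, Benjamini-Hochberg adjustment over all genes and an FDR under 0.01. SEs are the fold change divided by the square root of F. The test was checked on simulated counts. The study's exactTest, DESeq2 1.42.0, other scalings and filters, a replicate block, an FDR under 0.05 and each library left out were alternatives.

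Members, gene lists and the naming rule were chosen with earlier results of these data known. All members are named, with values per library for those past the threshold and for the largest and smallest changes of each group. Other pathway genes are named where past the threshold with a log2 change of at least 1, or as partners of a member, except for a few not reported here, and PCNA, MKI67 and the extreme change represent the S phase list. CCNE1 and ENOSF1 were named after their values were seen. The other pathway and S phase lists are given by counts and medians, and the values of most of their genes are not printed. Gene positions and transcript lengths came from GENCODE (GRCh37), matched by identifier for all 33 members, and promoter windows from RefSeq (GRCh38.p14). Of the members, 16 overlap a gene on the other strand and 9 on the same strand. Since the kit does not mark strand, HTSeq could not tell antisense reads apart, and 12 members have annotated pseudogenes.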

Additional observations from a re-analysis of the deposited data

How the results depend on the processing

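With 2 libraries per group, the median SE of a log2 fold change was 0.123 over all genes and 0.119 over the 33 members, so changes much smaller than those called could not be detected. The number of lower members was 14 to 21 under the alternatives that kept all libraries (16 as reported), and no member passed in the opposite direction. DCK, GMPS and HPRT1 passed as lower, and GUK1 as higher, with DESeq2 and with exactTest and TMM. Higher members (1 as reported) numbered 2 with DESeq2, exactTest with TMM, total counts or an FDR under 0.05, and 3 with exactTest on total counts or the replicate block. Lower other pathway genes (9 as reported) numbered 14 with exactTest and TMM, 17 with the replicate block and 18 at an FDR under 0.05. The shares of all genes lower in these fits were 19.7%, 21.4% and 23.8%. With total counts, in either test, the deoxynucleotide median was -0.85 (-0.97 as reported) and the purine median -0.30 (-0.42 as reported), while the median of all genes moved to 0.12. APRT, at -0.0024, turned to 0.12 with total counts in either test, 0.0158 with the upper quartile and 0.0101 with a mean count of at least 100, and ranged from -0.0189 to 0.0157 without 1 library, with 0.000697 without shCtrl replicate 2. SAMHD1, at -0.11, turned to 0.0068 with total counts in either test. CTPS2, at -0.06, turned to 0.064 with total counts in either test (0.0639 with exactTest) and 0.000906 without shYEATS2 replicate 2, and CCNE1, at -0.10, to 0.0172 with total counts in either test and 0.0401 without shCtrl replicate 1. ENOSF1 ranged from -0.105 to 0.154 without 1 library. These genes were not called in any of those fits. The cause of these shifts was not tested beyond the common offset of total-count scaling.

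Over all genes, 1581 lower and 1630 higher calls became 2190 and 2159 with DESeq2, 2497 and 2596 with exactTest and TMM, 1778 and 3464 with exactTest on total counts, and 3011 and 3093 at an FDR under 0.05. Without 1 library they ranged from 850 to 2024 lower and from 775 to 1971 higher, the fewest without shCtrl replicate 1 and the most without shYEATS2 replicate 1. Without 1 library, lower members ranged from 12 to 20 and higher members from 0 to 1, lower deoxynucleotide genes from 6 to 7, lower purine and pyrimidine genes from 3 to 9, lower one-carbon genes from 2 to 3, lower S phase genes from 18 to 25, and other pathway genes from 5 to 12 lower and from 3 to 10 higher. The medians then ranged from -1.05 to -0.90 for deoxynucleotide genes, -0.73 to -0.45 for pyrimidine genes, -0.50 to -0.35 for purine genes, -0.81 to -0.48 for PRPP synthesis, -0.54 to -0.24 for one-carbon genes and -1.70 to -0.99 for S phase genes. Libraries with the same replicate number deviated together (correlation 0.402 over genes), but with only 2 pairs and no shared batch in the labels the numbers are treated as names. With the replicate block, 2715 genes (21.4%) were lower and 2742 (21.6%) higher, with 20 members lower and 3 higher.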
